A study of Homo sapiens with 6 samples.

Results

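Potassium channel genes were taken as the rows of the deposited count table whose symbol begins with KCN, is followed by 1 or 2 family letters and ends in a number. The rule found 65 of 31122 genes and left out 7 other KCN-prefixed symbols, among them KCNQ1OT1 and 3 antisense genes. Members were chosen by symbol, but the family was selected on the counts of KCNS3, which had been seen to switch on in this same comparison, so KCNS3 is described here without a test. RNA sequencing had been carried out on polyadenylated RNA from MDA-MB-468 cells, a long-established line from a breast cancer that lacks hormone receptors and has basal-like features. The KO-labelled group held 3 libraries from populations edited with CRISPR-Cas9 and 1 guide RNA (sgRNA1) to GPR52, a receptor of the G protein-coupled family with no established natural ligand, in which the submitters report indels by Sanger sequencing. The parental-labelled group (genotype WT) held 3 libraries from wells of 1 plate. Whether each edited population is a clone or a pool is not given in the labels. Effects of the guide, of selection and of culture history cannot be told apart from the genotype label, since a population with a control guide was not analysed here. The spread behind each p-value is that between wells or populations and may be partly technical. In bulk RNA, fewer cells expressing a gene and less RNA per cell cannot be told apart.

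RNA of the edited gene was high under the KO label and nearly absent under the parental label, for a reason that was not tested. GPR52 had 645, 694 and 724 counts in KO-labelled 1 to 3, against 9, 1 and 0 in parental-labelled 1 to 3. Every direction below is therefore that of the libraries labelled GPR52 KO relative to those labelled parental, whatever the state of GPR52 in them. Library totals were 25637794 to 31692454 counts, so that 1 count was worth 0.0316 to 0.039 CPM (counts scaled to a common library size). KO-labelled 3 stood apart from KO-labelled 1 and 2, and values without it are given for each named member whose call they change. Of 10 epithelial markers, all were tested, and 3 were called higher, 3 lower and 4 not called. Over all tested genes 21% were called higher and 19.8% lower. The summed level of these markers was 9560 to 14300 CPM in KO-labelled and 11000 to 11200 CPM in parental-labelled libraries. EGFR alone held 4560, 4930 and 8310 CPM of it in KO-labelled 1 to 3, and 4860 to 5270 CPM in parental-labelled libraries. Of 15 markers of blood, endothelium, fibroblasts, muscle and neural cells, 12 had a row and at least 1 count, and together they reached 1.96 to 3.01 CPM in KO-labelled and 4.26 to 4.57 CPM in parental-labelled libraries. Of the 4 that were tested, none was called higher and 2 were called lower, and the part of such cells in the results was not tested.

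Potassium channels let potassium ions leave or enter the cell down their electrochemical gradient and so set the membrane potential, cell volume and the drive for calcium entry. Most are assemblies of pore-forming subunits around a selectivity filter, a short loop that lines the pore. Voltage-gated subunits open on depolarisation, inward rectifiers pass current best near rest, tandem-pore subunits carry background leak, and calcium-activated subunits couple the channel to intracellular calcium. A further group of voltage-gated-like subunits, to which KCNS3 belongs, is electrically silent: these proteins do not form working channels alone and instead assemble with other voltage-gated subunits and alter their gating. Auxiliary subunits bind channels without lining the pore. In epithelial and breast cancer cells these genes have been studied chiefly for the control of proliferation, volume and migration.

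The coding sequence of the selectivity filter is shown first, because it is the feature that pore-forming members share and that the symbol rule did not use. The pattern searched was 5 codons in frame, for threonine or serine, then valine, isoleucine, leucine or threonine, then glycine, then tyrosine or phenylalanine, then glycine. It was settled while looking at these sequences. At least 1 match lay in the longest complete coding transcript (GENCODE v29) of all 51 pore-forming and silent members and of none of the 14 auxiliary members, against 0.955% of 19484 genes. Of the 13 tandem-pore members 9 had 2 matches. Windows of 45 bases, 5′ to 3′ on the coding strand, are given for members that the results turn on, with the filter codons in capitals:
KCNS3: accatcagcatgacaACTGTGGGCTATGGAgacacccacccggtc
KCNG1: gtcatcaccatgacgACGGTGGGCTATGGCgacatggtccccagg
KCNQ1: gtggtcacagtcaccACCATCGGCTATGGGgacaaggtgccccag
KCNMA1: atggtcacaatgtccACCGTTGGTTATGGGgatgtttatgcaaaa
KCNN4: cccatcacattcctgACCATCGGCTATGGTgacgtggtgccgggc
On GRCh38, the build of that annotation, the KCNS3 window lies at chr2:17932101-17932145 on the + strand in exon 3. The KCNG1 window lies at chr20:51004282-51004326 (- strand, exon 3). The KCNQ1 window is split by an intron between exons 6 and 7 and spans chr11:2572984-2583476 on the + strand. The KCNMA1 window lies at chr10:77110221-77110265 (- strand, exon 8) and that of KCNN4 at chr19:43772042-43772086 (- strand, exon 4). Of the 45 bases of the KCNS3 window, KCNG1 shared 31, KCNN4 shared 26, KCNMA1 and KCNQ1 shared 23 each, and KCNJ11, the least like it among tested members, shared 16.

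Expression was read first from the authors' FPKM values (fragments per kilobase of transcript, scaled to depth), since only a value per length allows levels of different genes to be compared. By a mean of at least 1 FPKM in either group, 19 members were expressed, 14 of them in both groups and 5 in KO-labelled libraries alone. Among those 5 were the silent subunit KCNS3, the voltage-gated KCNQ1, the large-conductance calcium-activated KCNMA1 and the auxiliary KCNAB3. KCNAB3 owed its place to KO-labelled 2, at 1.47 FPKM, and was at 0.97 and 0.936 FPKM in KO-labelled 1 and 3. All 65 members had at least 1 count in some library, but 32 did not pass the filter on low counts (filterByExpr, here 0.359 CPM in at least 3 libraries). Of those 32, 16 had 5 or fewer counts over all 6 libraries, and none had more than 48. A further 18 symbols that match the rule were listed among the FPKM values only, none above 0.00171 FPKM. KCNB2, a delayed rectifier subunit, had 1 count in KO-labelled 2 and none in the parental-labelled libraries, which allows up to 0.0341 CPM there (3 counts over the group, counting error only).

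**Figure D1:**
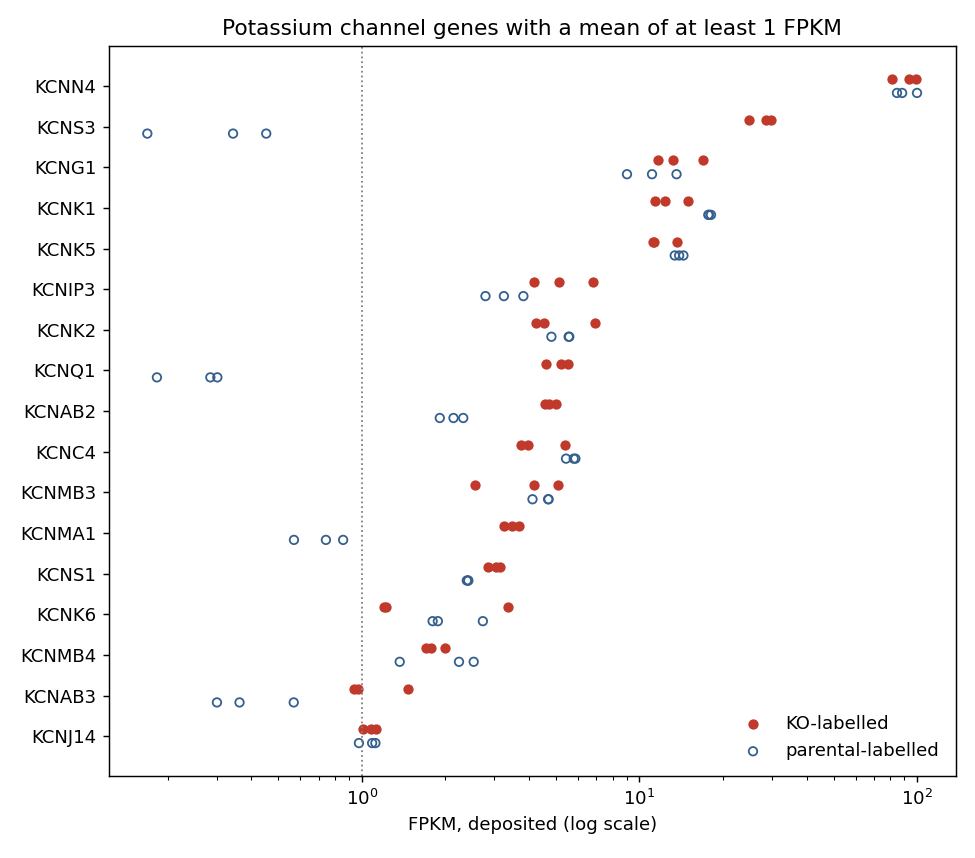
Deposited FPKM (log axis) of 17 of the 19 members with a mean of at least 1 FPKM in either group, with filled points for the 3 KO-labelled and open points for the 3 parental-labelled libraries and a dotted line at 1 FPKM. KCNN4 sits highest in both groups, and KCNS3, KCNQ1, KCNMA1 and KCNAB3 are the members drawn whose parental-labelled points all lie left of the line while their KO-labelled mean lies right of it.

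KCNN4, the intermediate-conductance calcium-activated channel that was first known from red blood cells and T lymphocytes, had the highest level of the family in every library. It was listed at 93.1, 99.4 and 80.9 FPKM in KO-labelled 1 to 3, against 88.3, 84.6 and 99.9 FPKM in parental-labelled 1 to 3. The ranges overlap and the means were 91.1 ± 9.39 and 90.9 ± 8.01 FPKM (SD, n = 3 each). Its log2 fold change from the counts was 0.01 (SE 0.09) and it was not called (edgeR quasi-likelihood test, adjusted p = 0.908). KCNN4 made up 38.4% to 47.3% of the summed FPKM of all members in KO-labelled libraries and 51.4% to 54.4% in parental-labelled ones.

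The summed level of the family was 210.5 ± 0.370 FPKM in KO-labelled and 171.5 ± 10.6 FPKM in parental-labelled libraries (SD, n = 3 each). Without KCNS3 the sums were 182.8 ± 2.29 and 171.2 ± 10.7 FPKM, and parental-labelled 3, at 183 FPKM, then lay within the range of the KO-labelled libraries, 181 to 185 FPKM. KCNS3 therefore accounted for most of the difference in the sum. By class, the silent subunits held 45.3 ± 4.55 FPKM in KO-labelled and 14.1 ± 2.16 FPKM in parental-labelled libraries. Without KCNS3 they held 15.2, 16.9 and 20.7 FPKM in KO-labelled 1 to 3, against 11.6, 13.7 and 16.1 FPKM in parental-labelled 1 to 3, and the groups overlapped. The voltage-gated pore-forming subunits held 15.3 ± 1.44 FPKM in KO-labelled and 9.84 ± 0.361 FPKM in parental-labelled libraries. Tandem-pore subunits held 33.4 ± 5.96 and 40.2 ± 0.693 FPKM, and KO-labelled 3, at 40.2 FPKM, lay within the range of the parental-labelled libraries.

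**Figure D2:**
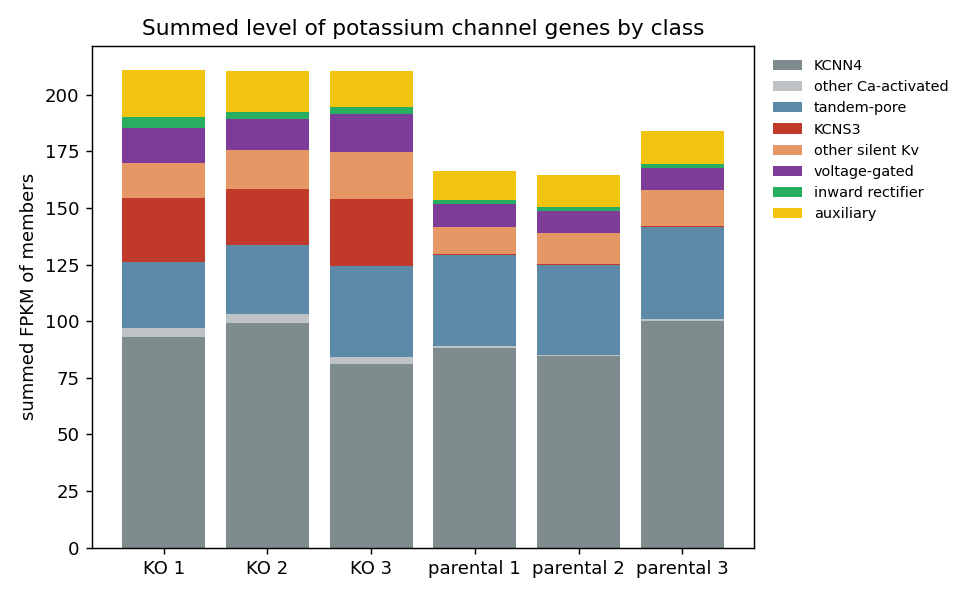
Summed FPKM of the members in each library, stacked by class, with KCNN4 and KCNS3 drawn apart from the rest of their classes. KCNN4 is the largest block in all 6 libraries, and the KCNS3 block, 24.9 to 29.7 FPKM in the KO-labelled libraries, is barely visible in the parental-labelled ones.

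KCNS3 was the member with the largest difference, and its values are given as a description because they led to the choice of this family. It had 1843, 1720 and 1942 counts in KO-labelled 1 to 3, against 29, 26 and 15 in parental-labelled 1 to 3. The KO-labelled libraries were close to each other, and the lowest of them was far above the highest parental-labelled one. In CPM scaled by TMM (trimmed mean of M values) the means were 66.5 ± 4.95 and 0.824 ± 0.298 (SD, n = 3 each), a ratio of 80.7 and a fitted log2 fold change of 6.35. Leaving out each library in turn gave 6.05 to 6.52. The deposited FPKM were 28.5, 24.9 and 29.7 in KO-labelled and 0.344, 0.453 and 0.169 in parental-labelled libraries, so the gene ranked 2 among all members in each KO-labelled library and between 17 and 28 in the parental-labelled ones. Parental-labelled libraries were thus low but not at 0.

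The KCNS3 promoter table entry with more CG dinucleotides is printed because this gene has the widest difference of the family. It covers the 250 bases before the RefSeq start (GRCh38.p14, chr2:17878417-17878666, + strand), with CG in capitals:
KCNS3: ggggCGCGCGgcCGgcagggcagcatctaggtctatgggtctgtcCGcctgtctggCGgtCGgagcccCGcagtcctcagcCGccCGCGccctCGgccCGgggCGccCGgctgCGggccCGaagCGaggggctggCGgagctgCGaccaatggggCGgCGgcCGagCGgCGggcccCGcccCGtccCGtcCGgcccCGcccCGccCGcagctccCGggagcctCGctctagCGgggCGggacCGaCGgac
This window holds 38 CG, more than 96.7% of 35116 promoter windows of the same length, whose median is 11. A second RefSeq start of KCNS3 has 14 CG in its window. KCNMA1, another member with a higher level in KO-labelled libraries, likewise has 1 start with 46 CG and 1 with 1. Of the 33 tested members 22 had a promoter entry. The letters GGGCGG were found on either strand in at least 1 window of 17 of them, against 42.6% of all windows, and TGACG, the core of the cAMP response element, in 7 of them, against 21.2%. The full element TGACGTCA, which contains TGACG, was in none of the 22 and in 1.65% of all windows. Members with several starts had several chances of a match, so these shares are not on one footing, and a match is a description of letters only.

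Of the other silent subunits, only KCNG1 and KCNS1 reached a mean of 1 FPKM, and both did so in both groups. KCNG1, a modifier of delayed rectifier channels, was listed at 11.7, 13.2 and 17 FPKM in KO-labelled and 9.02, 11.1 and 13.6 FPKM in parental-labelled libraries, ranges that overlap (log2 fold change 0.34, SE 0.17; edgeR adjusted p = 0.139). KCNS1, the other listed subunit of the KCNS subfamily, had 14.1, 16.2 and 15.4 CPM against 12.8, 12.8 and 12.7 CPM, without overlap but not called (log2 fold change 0.26, SE 0.09; edgeR adjusted p = 0.0616). KCNS1 was called higher without KO-labelled 1 (edgeR adjusted p = 0.0376), and with upper-quartile scaling, library totals or a 10 CPM filter (edgeR adjusted p 0.0344 to 0.0403). KCNG3 was low, with 1.92, 2.16 and 2.04 CPM in KO-labelled and 0.66, 0.795 and 0.354 CPM in parental-labelled libraries (log2 fold change 1.78, SE 0.26). It passed the filter through its KO-labelled libraries alone, so its difference is given as a description. Of the remaining silent members, KCNF1 had 13, 3 and 13 counts in KO-labelled and 3, 0 and 3 in parental-labelled libraries and KCNV1 had 1 in the KO-labelled and 2 in the parental-labelled group, and neither was tested.

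**Figure D3:**
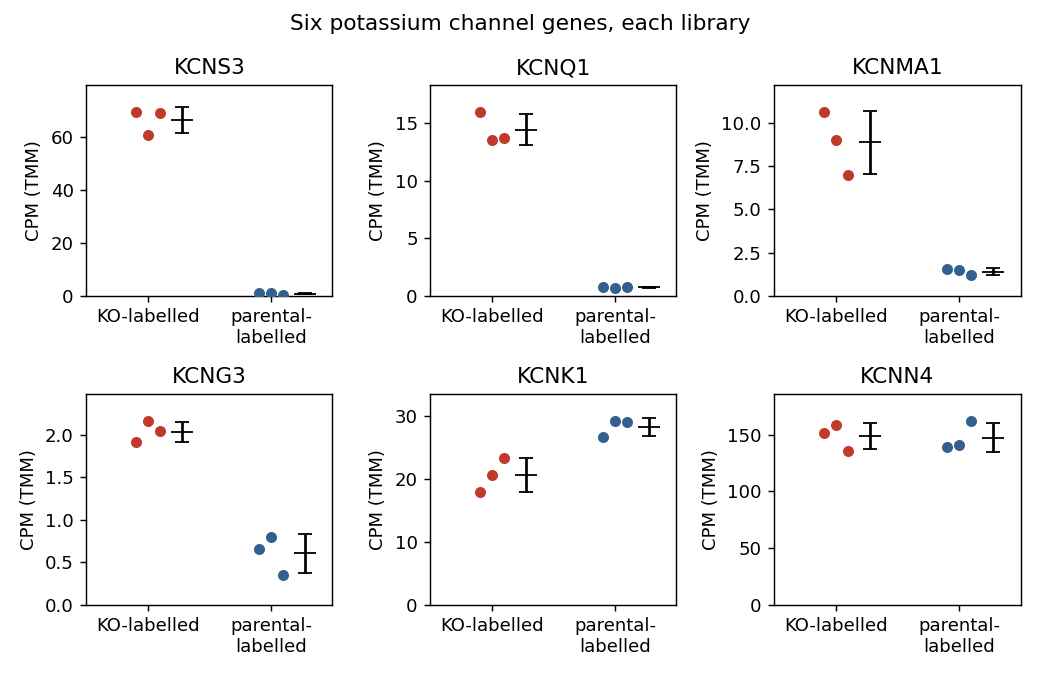
CPM with TMM library sizes of KCNS3, KCNQ1, KCNMA1, KCNG3, KCNK1 and KCNN4, 1 point per library, with the mean and SD of each group beside its points and axes that start at 0. The groups do not overlap for the first 5 genes, with KCNK1 lower in the KO-labelled libraries and the other 4 higher, and they overlap for KCNN4.

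Over the 32 tested members other than KCNS3, 15 were called higher in KO-labelled libraries, 3 lower and 14 not called, at an adjusted p under 0.05 in the edgeR quasi-likelihood test. The count of 3 lower was 1 without parental-labelled 2 or 3 and 6 without KO-labelled 3. Of all 17420 genes tested, 40.8% were called, 21% higher and 19.8% lower. At 2-fold or more 13 members were called higher, where the share over all genes was 6.67%, and none lower, where it was 5.38%. The median log2 fold change was 0.38 for the 32 members and 0.01 for all tested genes. The groups did not overlap for 21 of the 32 members, 16 with the KO-labelled libraries above, against 54.4% of all tested genes in either direction and 27.4% with the KO-labelled libraries above. Of the 32 members, 4 (KCNG3, KCNH3, KCNJ2 and KCNJ12) passed the filter through their KO-labelled libraries alone. That was the only group whose 3 libraries all reached it, so that the filter favours their difference. All 4 are among the 13 called higher at 2-fold or more and enter the median of 0.38. Among the 26 that passed through both groups, 11 were called higher, 3 lower and 12 not called, where 40.4% of 15572 such genes were called, 20.4% higher and 20% lower. The family was proposed from this comparison, so nothing is read from these counts. Over all 65 members, tested or not, 44 had the higher mean CPM in KO-labelled libraries and 21 in parental-labelled ones. The 44 include KCNS3 and the 4 members that passed through KO-labelled libraries alone. No share over all genes was taken for that split, so nothing is read from it. Among the 32 untested members the split was 21 and 11, where 55.7% of all untested genes with a count were higher in KO-labelled libraries.

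**Figure D4:**
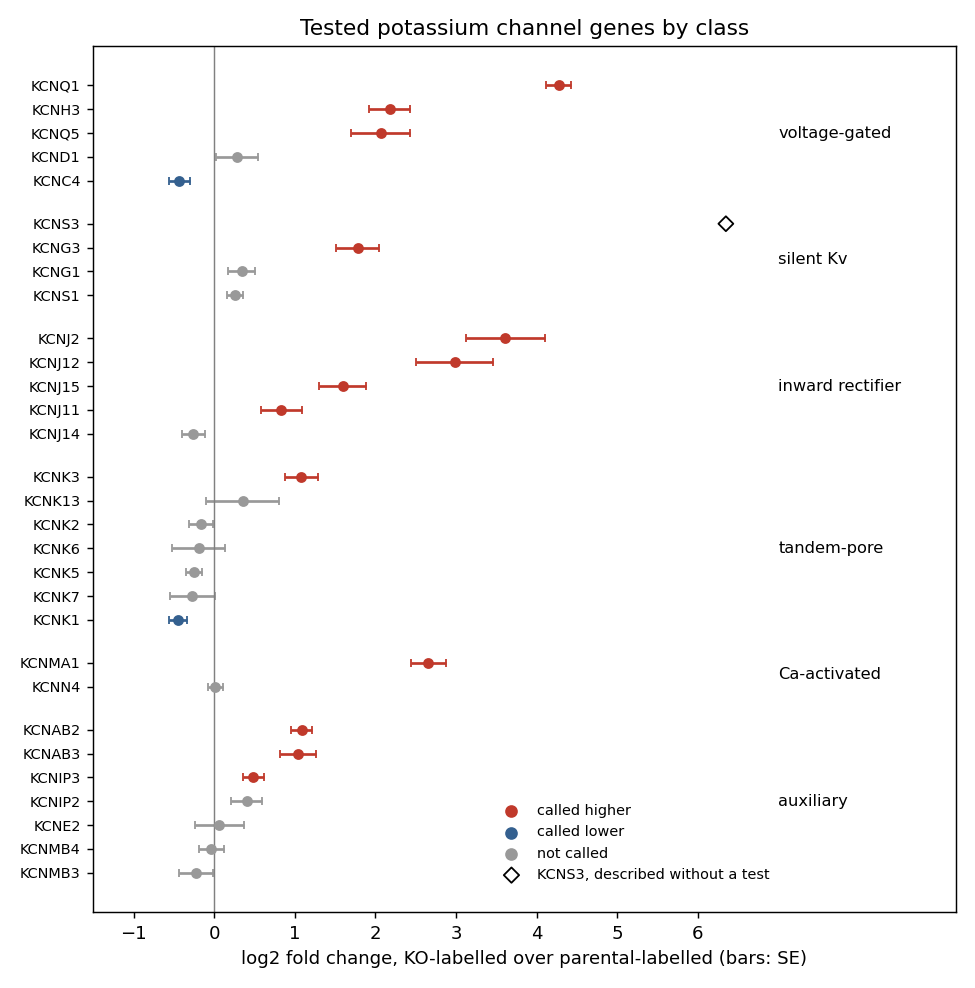
Log2 fold change (KO-labelled over parental-labelled) of 30 of the 33 tested members by class, with bars for the SE, colour for the edgeR call and an open diamond for KCNS3, which is described without a test. The calls of KCNG3, KCNH3, KCNJ2 and KCNJ12 rest on a filter passed through the KO-labelled libraries alone. KCNQ1 lies highest of the tested voltage-gated subunits drawn, while most tandem-pore and auxiliary members lie within 0.5 of 0.

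Voltage-gated pore-forming subunits moved in both directions. Of 17 members 8 were tested, and 5 were called higher, 2 lower and 1 not called, where 21% of all tested genes were called higher and 19.8% lower. Of the 7 that passed the filter through both groups, 4 were called higher and 2 lower. KCNQ1, which with auxiliary subunits carries the slow repolarising current of the heart and potassium flux in many epithelia, had 423, 383 and 383 counts in KO-labelled 1 to 3, against 23, 18 and 23 in parental-labelled 1 to 3. Each group was tight and the groups were far apart, at 14.4 ± 1.35 and 0.738 ± 0.022 CPM (SD, n = 3 each). The log2 fold change was 4.27 (SE 0.16; edgeR adjusted p = 1.82e-06). KCNQ1OT1, the antisense RNA of the same imprinted region, had 1 count over all 6 libraries. The auxiliary subunits that pair with KCNQ1 were low. KCNE2 had 12, 15 and 18 counts in KO-labelled and 12, 12 and 21 in parental-labelled libraries and was not called, although 34.2% of its exon bases overlap an antisense gene. KCNE1 had 8, 3 and 6 counts against 9, 8 and 9, and KCNE3 had 1 count in the KO-labelled and 3 in the parental-labelled group.

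KCNQ5, which carries a slow subthreshold current in neurons and smooth muscle, had 4.07, 3.50 and 7.93 CPM in KO-labelled and 1.42, 0.993 and 1.25 CPM in parental-labelled libraries (log2 fold change 2.06, SE 0.36; edgeR adjusted p = 0.00289). KO-labelled 3 was the highest of its group, though the groups did not overlap. Without KO-labelled 3 the KCNQ5 log2 fold change was 1.61.

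KCNC4, a fast-deactivating subunit, was called lower, with 18.2, 17.4 and 24.4 CPM in KO-labelled and 27.5, 27.4 and 26.3 CPM in parental-labelled libraries (log2 fold change -0.43, SE 0.13; edgeR adjusted p = 0.0316). The KCNC4 call was lost without any 1 library other than KO-labelled 3 (edgeR adjusted p 0.0763 to 0.095). In FPKM, KCNC4 was at 4.37 ± 0.879 in KO-labelled and 5.71 ± 0.230 in parental-labelled libraries (SD, n = 3 each). KCNH3, a relative of the ether-a-go-go channels found mainly in brain, was low in both groups, with 46, 37 and 48 counts against 11, 10 and 9 (log2 fold change 2.18, SE 0.26), and it passed the filter through its KO-labelled libraries alone, so no test is given. KCND1 was not called.

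Calcium-activated channels differed between the pair that was tested. KCNMA1, the pore-forming subunit of the large-conductance BK channel, had 10.6, 9.02 and 7.0 CPM in KO-labelled 1 to 3, against 1.55, 1.47 and 1.19 CPM in parental-labelled 1 to 3. The lowest KO-labelled library was well above the highest parental-labelled one, and the log2 fold change was 2.66 (SE 0.21; edgeR adjusted p = 6.33e-05), against 0.01 for KCNN4. The BK beta subunits that were tested, KCNMB4 and KCNMB3, were not called. KCNMB1 had 6, 1 and 4 counts in KO-labelled and 1, 0 and 2 in parental-labelled libraries and was not tested. KCNMB4 had 4.90, 4.42 and 4.32 CPM in KO-labelled and 4.06, 4.49 and 5.40 CPM in parental-labelled libraries (log2 fold change -0.04, SE 0.15; edgeR adjusted p = 0.869). KCNMB3 had 7.42, 5.37 and 3.93 CPM against 6.83, 6.28 and 6.40 CPM (log2 fold change -0.23, SE 0.21; edgeR adjusted p = 0.429), and 37.9% of its exon bases overlap PIK3CA on the opposite strand, so its counts are uncertain. LRRC26, a gamma subunit that lets BK channels open at rest in secretory epithelia, had 6, 6 and 0 counts in KO-labelled and 0, 0 and 1 in parental-labelled libraries and was not tested.

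Inward rectifiers were low throughout. Of 11 members 5 were tested, 4 were called higher and 1 was not called, where 21% of all tested genes were called higher. KCNJ2 and KCNJ12 passed the filter through their KO-labelled libraries alone and are described without a test, which leaves 3 members that passed through both groups, 2 of them called higher. KCNJ14 alone reached a mean of 1 FPKM. KCNJ2, which stabilises the resting potential of muscle and heart, had 21, 27 and 38 counts in KO-labelled 1 to 3, against 5, 1 and 1 in parental-labelled 1 to 3. Its log2 fold change was 3.61 (SE 0.49), and 4.70 without parental-labelled 1, which held 5 of the 7 counts of its group. Its antisense gene KCNJ2-AS1 overlaps 3.32% of its exon bases and had 1 to 6 counts in KO-labelled and 1 in each parental-labelled library. KCNJ12, its close relative, had 16, 20 and 12 counts against 1, 1 and 4 (log2 fold change 2.99, SE 0.48), and 3.84 without parental-labelled 3. KCNJ12 has near-identical genomic copies, so reads of these could be lost or shared and its counts are uncertain. The remaining tested members had more counts in both groups. KCNJ15 had 43, 51 and 31 counts in KO-labelled and 19, 10 and 14 in parental-labelled libraries (log2 fold change 1.60, SE 0.29; edgeR adjusted p = 0.00338). KCNJ11, the pore of ATP-sensitive channels, had 53, 43 and 60 counts against 31, 35 and 25 (log2 fold change 0.83, SE 0.25; edgeR adjusted p = 0.0296). Its call was lost without KO-labelled 1, parental-labelled 1 or parental-labelled 3 (edgeR adjusted p 0.0718 to 0.12). KCNJ14 was the tested member that was not called, with 75, 81 and 86 counts in KO-labelled and 110, 82 and 111 in parental-labelled libraries. Among the 6 untested members, 5 had the higher mean CPM in KO-labelled libraries, where 55.7% of all untested genes with a count did. The most counted of them, KCNJ5, had 21, 14 and 5 counts in KO-labelled and 2, 2 and 1 in parental-labelled libraries, and KCNJ6 was the 1 that was lower, with 3, 3 and 2 against 13, 5 and 6.

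Tandem-pore leak channels were among the more abundant members. Of 13 members 7 were tested, 1 was called higher, 1 lower and 5 not called (median log2 fold change -0.19), where 21% of all tested genes were called higher and 19.8% lower. KCNK1 had 17.9, 20.5 and 23.3 CPM in KO-labelled 1 to 3, against 26.6, 29.1 and 28.9 CPM in parental-labelled 1 to 3, without overlap (log2 fold change -0.45, SE 0.11; edgeR adjusted p = 0.0127). That call was lost without parental-labelled 2 or 3, at an adjusted p of 0.0545 and 0.0504 (edgeR). KCNK5, an acid-sensitive channel of transporting epithelia, had 49.4, 49.3 and 61.7 CPM in KO-labelled and 63.0, 63.0 and 65.4 CPM in parental-labelled libraries and was not called (log2 fold change -0.25, SE 0.10; edgeR adjusted p = 0.0744). KCNK2, a stretch-sensitive channel, had 12.7, 10.7 and 16.1 CPM against 15.6, 14.5 and 14.1 CPM and was not called (log2 fold change -0.16, SE 0.15; edgeR adjusted p = 0.423). KO-labelled 3 was the highest of its group for both, and without it both were called lower, KCNK5 at -0.37 (edgeR adjusted p = 0.000764) and KCNK2 at -0.34 (edgeR adjusted p = 0.0236). KCNK3, another acid-sensitive channel, was called higher with 3.66, 4.84 and 4.71 CPM in KO-labelled and 1.58, 2.26 and 2.41 CPM in parental-labelled libraries (log2 fold change 1.08, SE 0.20; edgeR adjusted p = 0.00391).

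Auxiliary subunits that were called differed by little more than 2-fold at most. Of 14 members 7 were tested, 3 were called higher and 4 not called (median log2 fold change 0.40), where 21% of all tested genes were called higher. All 7 passed the filter through both groups. KCNAB2, a cytosolic beta subunit of voltage-gated channels with an aldo-keto reductase fold, had 11.3, 10.4 and 9.75 CPM in KO-labelled 1 to 3, against 4.55, 4.73 and 5.56 CPM in parental-labelled 1 to 3 (log2 fold change 1.08, SE 0.13; edgeR adjusted p = 0.000421). Its relative KCNAB3 had 2.37, 2.93 and 1.89 CPM against 1.29, 1.11 and 1.09 CPM (log2 fold change 1.04, SE 0.22; edgeR adjusted p = 0.00701). The KCNA subunits with which the beta subunits are best known to assemble were nearly undetected, with KCNA4 at 0 counts in the KO-labelled group and 1 in the parental-labelled group, and KCNA7 at 2 and 0. KCNIP3, a calcium sensor that binds KCND channels and also acts in the nucleus, had 13.8, 10.6 and 11.6 CPM in KO-labelled and 8.68, 7.67 and 9.26 CPM in parental-labelled libraries (log2 fold change 0.49, SE 0.13; edgeR adjusted p = 0.0214). The KCNIP3 call was lost without KO-labelled 1, parental-labelled 1 or parental-labelled 2 (edgeR adjusted p 0.0533 to 0.0926). KCNIP2, its relative, was not called (log2 fold change 0.40; edgeR adjusted p = 0.13), and was called higher without KO-labelled 3 (log2 fold change 0.55, edgeR adjusted p = 0.0237).

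Members varied among the KO-labelled libraries as well. KO-labelled 3 differed from the mean of KO-labelled 1 and 2 by 1 or more on the scale of log2(CPM + 0.1) for 3 of 33 tested members, and 4.54% of all tested genes did so. Those members were KCNK6, KCNK13 and KCNQ5, all with KO-labelled 3 higher. KCNK6 had 3.77, 3.68 and 8.96 CPM in KO-labelled 1 to 3, so that its KO-labelled libraries lay on both sides of the parental-labelled ones at 6.04, 5.92 and 6.82 CPM. It was not called, and without KO-labelled 3 it was called lower (log2 fold change -0.75, edgeR adjusted p = 0.0013). KCNK13 had 12, 9 and 28 counts in KO-labelled and 10, 13 and 17 in parental-labelled libraries. KCNS3 and KCNQ1 did not share that pattern, with KO-labelled 3 at 1.06 and 0.928 times the mean of KO-labelled 1 and 2. The median SD on that scale was 0.25 over the KO-labelled and 0.18 over the parental-labelled libraries for members, and 0.18 and 0.09 for all tested genes.

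Genes that act with potassium channels under other names were read from lists of partners and transporters. Among partners and regulators 3 of 9 tested genes were called higher, 1 lower and 5 not called. Of all tested genes, 21% were called higher and 19.8% lower. The median log2 fold change was -0.04, where that of all tested genes was 0.01. SGK1, a kinase that raises the surface level of several channels and transporters, had 23.4, 35.5 and 23.7 CPM in KO-labelled and 6.96, 8.07 and 7.01 CPM in parental-labelled libraries (log2 fold change 1.91, SE 0.18; edgeR adjusted p = 0.000148). The calmodulin gene CALM2, whose product is the calcium sensor of KCNN4, was at 847 ± 98.7 CPM in KO-labelled and 583 ± 17.9 CPM in parental-labelled libraries (SD, n = 3 each) and called higher.

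Of sodium-potassium ATPase subunits and their FXYD regulators, 2 of 7 tested genes were called higher, 3 lower and 2 not called (median log2 fold change 0.04). Shares over all tested genes, for this list and the next, were 21% called higher and 19.8% lower. FXYD6, a small pump regulator, had 12.2, 11.4 and 8.43 CPM against 0.363, 0.437 and 0.739 CPM (log2 fold change 4.35, SE 0.27; edgeR adjusted p = 2e-05), while FXYD5 was called lower at 112 ± 12.4 and 181 ± 5.84 CPM (SD, n = 3 each). Among hyperpolarisation-activated and cyclic nucleotide-gated channels, relatives of the KCNH genes, 3 of 6 tested genes were called higher, 1 lower and 2 not called. Of the 4 called, HCN2 and CNGB1 passed the filter through the KO-labelled libraries alone and CNGA2, the lower one, through the parental-labelled libraries alone. The pacemaker channel HCN4 had 10.7, 6.01 and 6.64 CPM in KO-labelled and 0.66, 0.596 and 0.611 CPM in parental-labelled libraries (log2 fold change 3.63, SE 0.31; edgeR adjusted p = 8.79e-05). HCN2 had 0.791, 0.813 and 0.714 CPM against 0.165, 0.159 and 0.257 CPM (log2 fold change 1.95, SE 0.29), given as a description.

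The chloride side was read from a pair of further lists, beside shares over all tested genes of 21% called higher and 19.8% lower. Of the 5 volume-regulated anion channel subunits 1 was called higher, 2 lower and 2 not called (median log2 fold change -0.10), with LRRC8A at 0.32 (SE 0.08) and LRRC8B at -0.25 (SE 0.08) on the log2 scale. Of 6 tested calcium-activated chloride channel genes 1 was called higher, 4 lower and 1 not called (median log2 fold change -0.32), and the higher one, BEST1, passed the filter through the KO-labelled libraries alone. CLCA2 was at 63.3 ± 14.9 CPM in KO-labelled and 164 ± 2.38 CPM in parental-labelled libraries, and ANO1, the pore-forming subunit in many epithelia, at 162 ± 25.4 and 292 ± 3.05 CPM (SD, n = 3 each). Their log2 fold changes were -1.38 (SE 0.15) and -0.85 (SE 0.11), with edgeR adjusted p-values of 0.00025 and 0.000627.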

How the data were processed

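Polyadenylated RNA of 6 libraries was sequenced after a directional kit, per the labels' protocols. The authors deposited raw counts per gene symbol and FPKM values. Per the submitters' processing notes, hg19, STAR 2.4.0f1, Cufflinks 2.0.2 and SAMtools 0.1.19 were used, in roles not described. Counting method, strand setting and annotation: not given in the sources used here. Groups follow the genotype label, and replicate numbers of the KO-labelled group follow deposition order.

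Counts were tested with edgeR 4.0.16 in R 4.3.3: filterByExpr defaults (minimum count 10, minimum total 15), TMM, quasi-likelihood F test in its current form, 6 libraries, no covariate, and Benjamini-Hochberg adjustment over 17420 genes with a threshold of 0.05. The SE is the size of the log2 fold change divided by the square root of F. The steps were tested on simulated data. No library pair agreed within sampling noise (chi-square per gene at least 3.03). Total counts of 25637794 to 31692454 limit precision, and floors cover counting error only. The authors' FPKM values give levels between genes.

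Members and lists were chosen with earlier results of these data known. Genes named are KCNS3, members called at 2-fold or more, the 8 highest by FPKM, KCNB2, and up to 2 called genes per further list with the smallest p. Others (among them KCNJ11, KCNIP2, KCNK6, KCNK13, KCNS1, KCNF1, KCNV1, KCNJ5, KCNJ6, KCND1, KCNA4, KCNA7, KCNE1 to KCNE3, KCNMB3, KCNMB4, KCNJ14, CNGA2, CNGB1, BEST1 and LRRC26) were named after their values were seen. Some members and genes of the lists are counted but not reported singly here. Filter codons came from GENCODE v29 transcripts and promoters from RefSeq (GRCh38.p14), where no file gives hg19 positions. Alternatives were other normalisations and filters, DESeq2 1.42.0, limma 3.58.1 (voom, and log2(FPKM + 1) or log2(FPKM + 0.1) for genes with at least 0.1 FPKM in 3 libraries), a test against 1.5-fold, other FPKM floors, and leaving out each library.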

Additional observations from a re-analysis of the deposited data

How the results depend on the processing

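No paired analysis was possible because the parental-labelled wells and the edited populations share no numbering in the labels. Counts of called members include KCNS3, whose call is no result here, and counts without it follow. A filter at 10 CPM in 3 libraries, which removes most members, left 7 members called and 4 called higher in place of 19 and 16. Against a 1.5-fold change (glmTreat) 1922 of all genes, 1 member lower in place of 3, and 8 further ion transport genes in place of 21 were called. With a library left out, members called ranged from 16 to 24, members called higher from 15 to 18, and members called lower from 1 (without parental-labelled 2 or 3) to 6 (without KO-labelled 3). Leaving KCNS3 out, a choice made after seeing the data, gave 18 members called and 15 higher, and 6 and 3 with the 10 CPM filter. With a library left out as well, 15 to 22 were called, 13 to 16 higher and 1 to 6 lower. These counts without KCNS3 cover only members that passed the filter with all 6 libraries. The ranges with KCNS3 also count members that passed it only when a library was left out. Called genes over the whole table ranged from 4879 to 9367, further ion transport genes from 16 to 25, members at 1 FPKM or more from 19 to 20, and the GPR52 log2 fold change from 7.07 to 10.12. The other normalisations, DESeq2, limma voom and the FPKM floors of 0.5 and 2 kept each of these counts within 1.5 times. Over the members named by rule, 316 settings kept the call (for KCNS3, the direction and size), 19 lost it and 2 gained it. None reversed the direction of a called member. Members named after their values were seen are not in this tally. Among those, KCNJ11 lost its call in some settings, and KCNS1, KCNIP2 and KCNK6 gained one in some. KCNN4, which no setting called, changed sign between settings, at -0.033 to 0.078 with a library left out. KCNS3 moved to 4.44 on log2(FPKM + 1), where the pseudocount compresses its low parental values. Depth limits the untested members, which had at most 48 counts over all 6 libraries.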
